A study of Mus musculus with 8 samples.

Results

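The genes of the proteasome were followed here as a group, chosen by symbol alone: every gene on the array whose annotated symbol begins with Psma, Psmb, Psmc, Psmd, Psme, Psmf or Psmg. The array held 41 such symbols, read by 51 probes, out of 16255 features in all (named genes and probes without a symbol). Of these, 37 could be tested, having values on 3 or more arrays in both groups, among 14015 features. Psmc3ip and Psme3ip1 fall under the rule by their symbols but encode proteins that are no part of the proteasome, and they are kept apart. The account therefore covers 39 genes, 35 of them tested and 30 of those measured on all 8 arrays: 13 tested genes of the core particle, 12 of the regulatory particle, 5 assembly chaperones, 4 activators and 1 inhibitor. Psma2, Psmb2, Psmb9 and Psmb11 had too few values to be tested. Psma3, Psmc1, Psmd1, Psmd3, Psmd8, Psmd12, Psmg3 and Psmg4 were not analysed here.

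The proteasome is the cell's main machine for destroying proteins tagged with ubiquitin. Its barrel-shaped core particle has outer rings of alpha subunits, which gate the entrance, and inner rings of beta subunits, a few of which cut the peptide chain. A regulatory particle caps the barrel: its lid and ubiquitin receptors take the tagged protein and strip the tag, and its ring of ATPases unfolds the protein and threads it in. In mitosis the anaphase-promoting complex tags cyclin B and securin, and their destruction by the proteasome lets the cell divide. Human embryonic stem cells are known for high proteasome activity, linked there to the lid subunit PSMD11.

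The samples were 8 competitive hybridisations on 2-colour cDNA arrays, each holding RNA of both lines compared, the mouse embryonic stem (ES) cell lines HM-1 and R1. On 4 arrays both lines had been treated with nocodazole, which takes apart the microtubules of the spindle and arrests cells in mitosis, and on 4 arrays both were untreated. No dose or time and no age or passage of the cells is in the labels, nor whether the replicates were separate cultures. The p-values therefore rest on array-to-array spread that may be technical alone. HM-1 carried Cy5 on nocodazole arrays 1, 2 and 3 and on untreated arrays 1 and 2, and Cy3 on nocodazole array 4 and untreated arrays 3 and 4. That is a swap on 37.5% of the arrays, where the design text names 50%. Each value is the log2 ratio between the lines on 1 array, centred on the array's median, so a value of 1 is a 2-fold ratio. The numerator line is not settled. Signs are those of the deposited table, and the fits of single genes are on that reading unless said otherwise. Counts and medians of each comparison are also given with the sign of the 3 arrays with HM-1 in Cy3 turned round. Because treated and untreated RNA never met on an array, a difference between the groups is a shift in the HM-1 and R1 ratio and says nothing of a drug effect within a line. A ratio carries no level, so the presence of ES cell markers could not be checked, and fewer cells of a type and less RNA per cell cannot be told apart. Arrays held 17928 to 19445 values, and the SD over features was 0.58 to 0.77 on 7 arrays and 1.10 on nocodazole array 3.

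Proteasome genes are known to be induced together by the transcription factor Nfe2l1 through a short promoter element. The letters TGACNNNGC, a core of that element, were looked for on both strands of the RefSeq promoter windows (GRCm38.p6, from 250 bases before to 50 bases after the start) of the 33 genes of the group that had one. They stood in 5 genes (15.2%), namely Psmb5, Psmb6, Psmc6, Psmd9 and Psme4, against 14% of 27025 genes with a window, so the letters were about as common in the group as in promoters at large. CCAAT stood in 12 genes of the group (36.4%), against 41.1% of all genes. The windows below are those in which TGACNNNGC, in capitals, lies on the gene's own strand within 50 bases before the start, at base -47 in Psmb5, -9 in Psmb6 and -31 in Psmd9, counted to the first capital. They are shown because the first pair belong to catalytic subunits whose ratios are among the best measured below.
Psmb5, chr14:54617946-54618245, minus strand: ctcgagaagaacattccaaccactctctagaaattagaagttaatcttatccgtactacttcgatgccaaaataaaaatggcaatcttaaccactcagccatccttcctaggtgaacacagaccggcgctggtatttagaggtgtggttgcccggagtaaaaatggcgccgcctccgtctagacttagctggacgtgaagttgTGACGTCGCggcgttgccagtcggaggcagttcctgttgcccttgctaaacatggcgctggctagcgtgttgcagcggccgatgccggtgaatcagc
Psmb6, chr11:70525107-70525406, plus strand: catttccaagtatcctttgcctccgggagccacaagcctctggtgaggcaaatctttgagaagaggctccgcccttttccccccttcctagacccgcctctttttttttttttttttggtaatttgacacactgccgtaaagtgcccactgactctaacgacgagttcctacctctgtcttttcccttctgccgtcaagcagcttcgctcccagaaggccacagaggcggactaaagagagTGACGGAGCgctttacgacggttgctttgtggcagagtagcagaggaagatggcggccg
Psmd9, chr5:123227940-123228239, plus strand: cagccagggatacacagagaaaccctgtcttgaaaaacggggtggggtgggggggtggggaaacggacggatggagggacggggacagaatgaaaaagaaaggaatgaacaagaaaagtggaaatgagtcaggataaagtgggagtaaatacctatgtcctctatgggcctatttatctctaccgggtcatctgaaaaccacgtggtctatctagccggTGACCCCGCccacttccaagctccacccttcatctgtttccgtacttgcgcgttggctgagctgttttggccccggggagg
A match of letters is a description of the window only.

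No proteasome gene passed the test for a ratio between the lines, under nocodazole or without it. Of the 35 tested genes, 0 had an adjusted p under 0.05 (limma, Benjamini-Hochberg over 14015 features, two-sided) in the nocodazole ratio, the untreated ratio, their mean, or the change between them, as was the case for 0 of 14015 features (0%) in each. At an unadjusted p under 0.05 the nocodazole ratio held 0 of the 35 genes, against 2.89% of all features, and the untreated ratio 1 (Psma1), against 6.34%. The mean of both conditions held 0 genes, against 5.53%, and the change 1 (Psmc5), against 3.32%. The smallest adjusted p of the group was 0.999 for the nocodazole ratio, 0.770 untreated, 0.897 for their mean and 0.996 for the change.

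The intervals show how much the arrays could have missed if the sign of nocodazole array 1 is right. That array, kept in these fits, had the opposite sign to the other nocodazole arrays in the medians of cell-type markers given below. For endoderm markers it was at 0.69, against -0.82, -0.77 and -0.85. Its sign was not tested and no fit turned it, which limits the bounds and the calls above. Leaving out single arrays changed no proteasome call, but the bounds were not refitted that way. For 26 of 35 genes the 95% interval of the nocodazole ratio lay within a 2-fold ratio in either direction, as it did for 66.7% of all features. The untreated ratio was bounded in this way for 27 genes (68.9% of features), the mean of both for 28 (79.6%) and the change for 23 (53.4%). Within the narrower bound of 1.41-fold lay 17 genes with nocodazole (36.7% of features), 19 untreated (37.3%), 23 for the mean (51.6%) and 12 for the change (20.2%). With the Cy3 arrays turned, 25 genes with nocodazole, 26 untreated, 28 for the mean and 24 for the change lay within 2-fold, beside 66.4%, 68.1%, 78.2% and 52.9% of features. None of these shares was tested against that of all features. The remaining genes had ratios too scattered to bound. The spread varied within the group: the SD over the arrays had a median of 0.304 for the 37 tested symbols, against 0.418 for all tested features. It was under 0.3 for 18 of them and above 1 for 5. Of all tested features, 36.8% had a smaller SD than Psmb1, whose SD was 0.304. The SD was smaller than that of Psmc5 (0.966) in 81% and than that of Psmd7 (1.22) in 88%. Whether the spread of the group differs from that of all features was not tested.

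**Figure D1:**
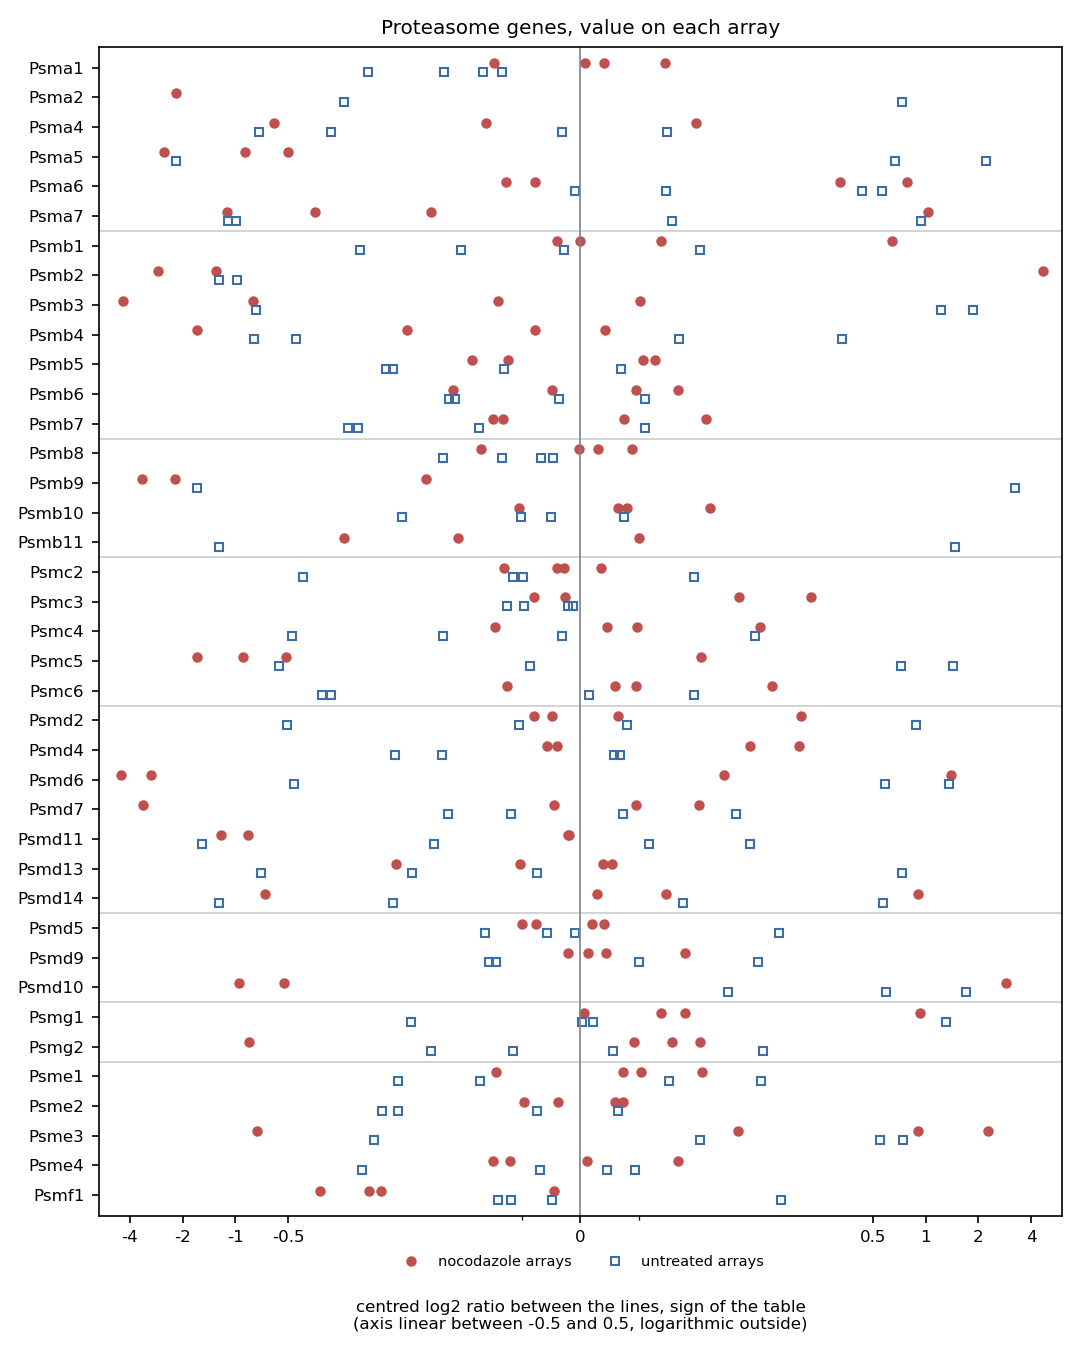
Centred log2 ratio between the lines (horizontal axis, linear between -0.5 and 0.5 and logarithmic outside) of the 39 proteasome genes on the array, 1 point per array, with nocodazole arrays as filled circles and untreated arrays as open squares. Grey lines part the alpha subunits, beta subunits, immunoproteasome and thymoproteasome subunits, ATPases, other regulatory subunits, chaperones of the base, chaperones of the core, and activators with the inhibitor. Circles and squares overlap for every tested gene.

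The alpha subunits form the outer rings of the core. Psma1 was at 0.04, -0.15, 0.008 and 0.14 on nocodazole arrays 1 to 4, against -0.17, -0.36, -0.13 and -0.23 on untreated arrays 1 to 4. All 4 untreated values were negative while 3 of 4 nocodazole values were positive, but nocodazole array 2 lay within the untreated range, so the groups overlap. The untreated ratio of Psma1 was fitted at -0.22 (95% interval -0.43 to -0.01, limma adjusted p = 0.77), the smallest unadjusted p of the group in that comparison (0.0395), and with the Cy3 arrays turned it was -0.04 (95% interval -0.31 to 0.23, limma adjusted p = 0.949). Psma7 was at -0.46, -1.11, -0.26 and 1.03 on nocodazole arrays 1 to 4, against -0.99, -1.11, 0.16 and 0.94 on untreated arrays 1 to 4. Its 3 positive values were those of the arrays with HM-1 in Cy3, and the groups overlap throughout, with -0.20 ± 0.90 on the nocodazole arrays and -0.25 ± 0.98 on the untreated arrays (SD, n = 4 each). Psma6 was at -0.13, 0.44, 0.79 and -0.08 on nocodazole arrays 1 to 4, against -0.009, 0.15, 0.57 and 0.48 on untreated arrays 1 to 4, with nocodazole arrays 2 and 3 and untreated arrays 3 and 4 high. Its mean over both conditions was fitted at 0.28 (95% interval -0.05 to 0.62, limma adjusted p = 0.897). Psma5 had values on 6 arrays, -0.88, -2.55 and -0.50 on nocodazole arrays 1, 2 and 4, against -2.18, 0.67 and 2.21 on untreated arrays 2, 3 and 4, the second widest scatter of a tested core subunit after Psmb3. Psma4 stayed between -0.60 and 0.20 on 3 nocodazole arrays and between -0.73 and 0.15 on 4 untreated arrays. Psma2, listed on 3 arrays, was not tested.

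The constitutive catalytic subunits were measured closely. Psmb5, which carries the chymotrypsin-like activity, was at 0.13, -0.12, 0.11 and -0.18 on nocodazole arrays 1 to 4, against 0.07, -0.13, -0.32 and -0.33 on untreated arrays 1 to 4. Psmb6, the caspase-like subunit, was at 0.17, -0.05, 0.09 and -0.22 on nocodazole arrays 1 to 4, against 0.11, -0.04, -0.21 and -0.23 on untreated arrays 1 to 4, and Psmb7, the trypsin-like subunit, at 0.21, 0.07, -0.15 and -0.13 on nocodazole arrays 1 to 4, against 0.11, -0.17, -0.38 and -0.40 on untreated arrays 1 to 4. In each of these genes untreated arrays 3 and 4 were the lowest or near it and the nocodazole and untreated values overlapped. Psmb5 averaged -0.02 ± 0.16 on the nocodazole arrays and -0.18 ± 0.19 on the untreated arrays (SD, n = 4 each), and Psmb7 averaged 0.0013 ± 0.17 on the nocodazole arrays and -0.21 ± 0.24 on the untreated arrays (SD, n = 4 each). The fitted untreated ratio was -0.18 (95% interval -0.39 to 0.04, limma adjusted p = 0.833) for Psmb5 and -0.21 (95% interval -0.45 to 0.03, limma adjusted p = 0.815) for Psmb7. For Psmb6 it was -0.09 (95% interval -0.29 to 0.11, limma adjusted p = 0.935). The nocodazole ratio of Psmb5 was fitted at -0.08 (95% interval -0.32 to 0.15, limma adjusted p = 0.999), that of Psmb6 at -0.07 (95% interval -0.29 to 0.15, limma adjusted p = 0.999) and that of Psmb7 at -0.07 (95% interval -0.33 to 0.19, limma adjusted p = 0.999). A ratio of 1.41-fold or more lies outside these intervals for Psmb5, Psmb6 and Psmb7 in both conditions. With the Cy3 arrays turned, the sign of all of these fits was the opposite: the nocodazole and untreated ratios were 0.14 and 0.15 for Psmb5, 0.15 and 0.13 for Psmb6, and 0.14 and 0.18 for Psmb7. The direction in these genes thus rests on the reading of the table. Of the inner-ring subunits without activity, Psmb1 ranged from -0.04 to 0.64 on nocodazole arrays and from -0.38 to 0.20 on untreated arrays. Psmb3 and Psmb4 ran from -4.36 to 1.86 and from -1.65 to 0.45 over all arrays. Psmb2, listed on 5 arrays, was not tested.

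The immunoproteasome subunits replace the constitutive catalytic subunits when cells meet interferon gamma. Psmb8, the counterpart of Psmb5, was at -0.17, 0.09, 0.03 and -0.002 on nocodazole arrays 1 to 4, against -0.13, -0.07, -0.23 and -0.05 on untreated arrays 1 to 4. It was negative on every untreated array, with values that overlap the nocodazole ones, and was fitted at -0.02 (95% interval -0.25 to 0.21, limma adjusted p = 0.999) with nocodazole and -0.12 (95% interval -0.34 to 0.09, limma adjusted p = 0.898) untreated. Psmb10, the counterpart of Psmb7, was at 0.08, 0.06, 0.22 and -0.11 on nocodazole arrays 1 to 4, against 0.07, -0.05, -0.10 and -0.30 on untreated arrays 1 to 4, the lowest value of each group falling on an array with HM-1 in Cy3. Psmb9, the counterpart of Psmb6, had 5 values, -2.21, -0.27 and -3.40 on nocodazole arrays 1, 2 and 3, against -1.66 and 3.22 on untreated arrays 2 and 4, and was not tested. Of the 5, 2 matched, within 0.0015 on the log2 scale, the quotient of whole numbers no larger than 10. Such matches are common where few intensity units stand behind a ratio, but they also arise by coincidence, at 3.97% to 4.96% of an array's values when its offset was shifted. Psmb11, the thymic counterpart of Psmb5, was listed on 5 arrays between -1.23 and 1.47 and was not tested.

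**Figure D2:**
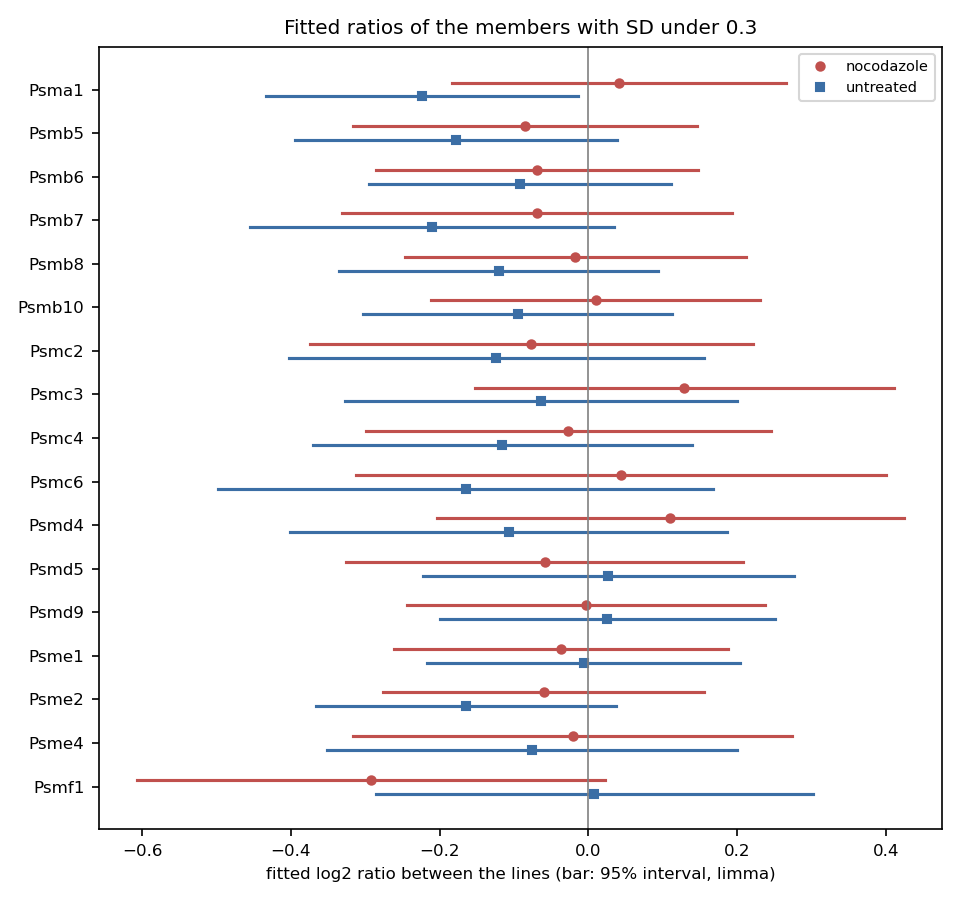
Fitted log2 ratio between the lines (horizontal axis, bars for the limma 95% interval) with nocodazole and untreated, for the tested proteasome genes whose SD over the arrays was under 0.3. Of the intervals drawn, that of Psma1 untreated alone does not reach 0, at an adjusted p of 0.770.

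Among the ATPases that drive unfolding, Psmc5 stood out in spread. It was at -1.65, -0.90, -0.52 and 0.21 on nocodazole arrays 1 to 4, against -0.09, -0.57, 0.72 and 1.43 on untreated arrays 1 to 4, with negative values on 3 nocodazole arrays and positive ones on nocodazole array 4 and untreated arrays 3 and 4. The fitted change, nocodazole minus untreated, was -0.76 (95% interval -1.51 to -0.01, limma adjusted p = 0.996), at an unadjusted p of 0.0476, and the groups overlap. Psmc4 was at 0.31, 0.10, 0.05 and -0.15 on nocodazole arrays 1 to 4, against 0.30, -0.03, -0.24 and -0.49 on untreated arrays 1 to 4. Its 3 lowest values were those of nocodazole array 4 and untreated arrays 3 and 4, and its fitted change was 0.09 (95% interval -0.28 to 0.46, limma adjusted p = 0.996). Psmc2, Psmc3 and Psmc6 stayed between -0.47 and 0.39 on every array.

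The other subunits of the regulatory particle take in and deubiquitinate the substrate. Psmd2, a scaffold and ubiquitin receptor of the base, was at 0.38, -0.08, -0.05 and 0.06 on nocodazole arrays 1 to 4, against 0.08, -0.11, 0.89 and -0.51 on untreated arrays 1 to 4, with untreated array 3 high and untreated array 4 low. Psmd4, a ubiquitin receptor, was at 0.37, -0.06, 0.29 and -0.04 on nocodazole arrays 1 to 4, against 0.06, -0.24, 0.07 and -0.32 on untreated arrays 1 to 4. It averaged 0.14 ± 0.22 on the nocodazole arrays and -0.11 ± 0.20 on the untreated arrays (SD, n = 4 each), with overlapping values, and its change was fitted at 0.22 (95% interval -0.21 to 0.65, limma adjusted p = 0.996). Psmd14, the deubiquitinase of the lid, was at 0.03, 0.90, -0.68 and 0.15 on nocodazole arrays 1 to 4, against 0.18, -0.32, 0.57 and -1.23 on untreated arrays 1 to 4, spread over both signs in both groups. The lid subunit Psmd11 was at -0.85, -1.21, -0.02 and -0.02 on nocodazole arrays 1 to 4, against -0.25, 0.12, 0.29 and -1.55 on untreated arrays 1 to 4. Its nocodazole ratio was fitted at -0.53 (95% interval -1.44 to 0.38, limma adjusted p = 0.999), and its low values rest mainly on 1 of its 2 probes, whose values follow with the other probe pairs. The other lid subunits stand outside the rule for named genes. Psmd7, the partner of Psmd14, was at -0.05, 0.10, -3.38 and 0.20 on nocodazole arrays 1 to 4, against 0.27, 0.07, -0.12 and -0.23 on untreated arrays 1 to 4, so that 1 array lay far below the other 7, and it is given in full because of that value. Psmd6 ran from -4.52 to 1.39 on nocodazole arrays, and Psmd13 from -0.71 to 0.74 over all arrays.

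The assembly chaperones are absent from the finished particle. Psmd5 and Psmd9, which help build the base, stayed between -0.16 and 0.34 on every array, while Psmd10, with the same role, ran from -0.95 to 2.89 on 6 arrays. Psmg1 and Psmg2 pair to assemble the alpha ring. Psmg1 lay between -0.29 and 1.31. Psmg2 was at -0.83 on nocodazole array 3 and between -0.26 and 0.31 on the other 7.

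The activators bind the core in place of the regulatory particle. Psme1 and Psme2, the alpha and beta subunits of the interferon-inducible activator PA28, shared an order of arrays by dye: Psme1 was at 0.21, 0.10, 0.07 and -0.14 on nocodazole arrays 1 to 4, against 0.31, 0.15, -0.17 and -0.31 on untreated arrays 1 to 4, and Psme2 at 0.06, -0.04, 0.07 and -0.10 on nocodazole arrays 1 to 4, against 0.07, -0.07, -0.34 and -0.31 on untreated arrays 1 to 4. Both were lowest on nocodazole array 4 and untreated arrays 3 and 4. The mean ratio over both conditions was fitted at -0.02 (95% interval -0.18 to 0.13, limma adjusted p = 0.949) for Psme1 and -0.11 (95% interval -0.26 to 0.04, limma adjusted p = 0.897) for Psme2. Psme3, which forms the nuclear activator PA28 gamma, was at 0.27, -0.75, 2.27 and 0.91 on nocodazole arrays 1 to 4, against -0.35, 0.20, 0.74 and 0.55 on untreated arrays 1 to 4. Its nocodazole ratio, fitted at 0.81 (95% interval -0.32 to 1.94, limma adjusted p = 0.999), stood beside a single value above 1 on nocodazole array 3, and the untreated ratio was 0.29 (95% interval -0.77 to 1.34, limma adjusted p = 0.982). Psme4, the nuclear activator PA200, was at -0.15, -0.12, 0.01 and 0.17 on nocodazole arrays 1 to 4, against 0.09, -0.07, -0.37 and 0.04 on untreated arrays 1 to 4, mixed in sign in both groups. Psmf1, known as the inhibitor PI31, was negative on all 4 nocodazole arrays, at -0.36, -0.34, -0.45 and -0.05 on nocodazole arrays 1 to 4, against -0.12, 0.34, -0.14 and -0.05 on untreated arrays 1 to 4. The untreated range takes in nocodazole array 4, and the nocodazole ratio of -0.29 (95% interval -0.61 to 0.02, limma adjusted p = 0.999) had the smallest unadjusted p of the group in that comparison, 0.0642.

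Taken by particle, the fitted ratios of the core had a median of -0.07 with nocodazole, with 8 of 13 genes negative, and -0.16 untreated, with 11 of 13 negative. The regulatory particle was at -0.05 with nocodazole (7 of 12 negative) and -0.10 untreated (9 of 12 negative). Of all tested features 51.4% were negative with nocodazole and 51.1% untreated. With single arrays left out, the regulatory median ran from -0.16 to 0.034 with nocodazole, positive without nocodazole array 3, and from -0.19 without untreated array 1 to 0.020 without untreated array 4 in the untreated ratio. With the Cy3 arrays turned, the medians were 0.02 with nocodazole and 0.02 untreated in the core, and 0.03 and 0.07 in the regulatory particle. For the mean of both conditions 27 of the 35 genes were negative, with a median of -0.07, beside 51.8% of all tested features and a median of -0.0079. Array by array, the core median was 0.08, -0.06, 0.02 and -0.11 on nocodazole arrays 1 to 4, against 0.03, -0.10, -0.10 and -0.23 on untreated arrays 1 to 4. That of the regulatory particle was 0.04, -0.07, -0.02 and 0.0068 on nocodazole arrays, against 0.13, -0.12, 0.04 and -0.38 on untreated arrays. Untreated array 4 was the lowest in both particles, and the groups overlap. Over the arrays the core median averaged -0.02 ± 0.08 with nocodazole and -0.10 ± 0.11 untreated, and the regulatory median -0.01 ± 0.05 with nocodazole and -0.08 ± 0.22 untreated (SD, n = 4 each), so each difference was smaller than the larger SD. Among the arrays with HM-1 in Cy5, the mean core median was 0.01 over 3 nocodazole arrays and -0.03 over 2 untreated arrays. With HM-1 in Cy3 it was -0.11 on 1 nocodazole array and -0.17 over 2 untreated arrays.

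**Figure D3:**
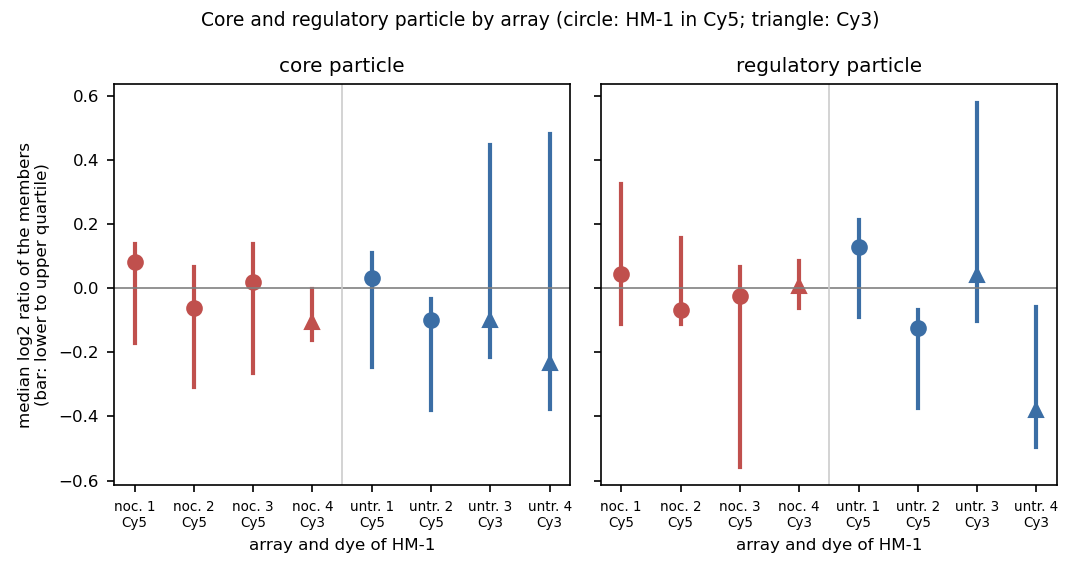
Median centred log2 ratio (vertical axis, bars from the lower to the upper quartile over genes) of the 13 core genes and the 12 regulatory particle genes on each array, nocodazole arrays left and untreated arrays right, circles for HM-1 in Cy5 and triangles for Cy3. The medians lie between -0.38 and 0.13, and untreated array 4 is the lowest in both panels.

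The fitted change of the ratio, nocodazole minus untreated, had a median of 0.09 in the core (9 of 13 positive) and 0.03 in the regulatory particle (7 of 12 positive), beside -0.0018 over all features. Of all features 49.7% had a positive change. With single arrays left out, the regulatory median of the change ran from -0.04 without nocodazole array 4 to 0.17 without untreated array 1, and it was also negative without untreated array 4. In 0 of the 35 genes did the nocodazole and untreated arrays fail to overlap, against 2.7% of features. The change is bounded to within 2-fold for 23 genes. It was 0.09 (95% interval -0.22 to 0.41, limma adjusted p = 0.996) for Psmb5, 0.02 (95% interval -0.27 to 0.32, limma adjusted p = 0.996) for Psmb6, 0.14 (95% interval -0.22 to 0.50, limma adjusted p = 0.996) for Psmb7 and 0.27 (95% interval -0.04 to 0.57, limma adjusted p = 0.996) for Psma1. With the Cy3 arrays turned, the median change was 0.02 in the core and -0.07 in the regulatory particle, and 0 genes had an unadjusted p under 0.05, against 4.89% of features.

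The values of several genes followed the dye that HM-1 carried. Those of the 5 arrays with HM-1 in Cy5 and of the 3 with HM-1 in Cy3 did not overlap in 10 of 35 genes (28.6%), against 12.5% of features. In 7 genes (Psmb1, Psmb5, Psmb6, Psmb10, Psmc4, Psme1 and Psme2) every Cy5 array lay above every Cy3 array, against 6.96% of features, and in 3 (Psma5, Psma7 and Psmc5) every one lay below, against 5.52%. In Psmc5 the average of the probes parted the arrays in this way, while each probe alone overlapped. In Psmb6 1 probe parted them and the other overlapped. Psme1 ran from 0.07 to 0.31 on Cy5 arrays and from -0.31 to -0.14 on Cy3 arrays. Psma7 ran from -1.11 to -0.26 on Cy5 arrays and from 0.16 to 1.03 on Cy3 arrays. None of the group passed the test of the dye component, as with all features (0%). At an unadjusted p under 0.05 it held 5 of the 35, against 9.32% of features. These were Psma7 (Cy5 minus Cy3 component -1.61, limma adjusted p = 0.306), Psmc5 (-1.33, 0.433), Psme1 (0.39, 0.492), Psmc4 (0.41, 0.514) and Psma5 (-2.41, 0.524). From these genes alone a ratio between dyes and a ratio between lines cannot be told apart, and the table's direction was not tested. Medians of marker lists on each array, and values of Sparc and Dab2 on untreated arrays of both dyes, are given below.

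**Figure D4:**
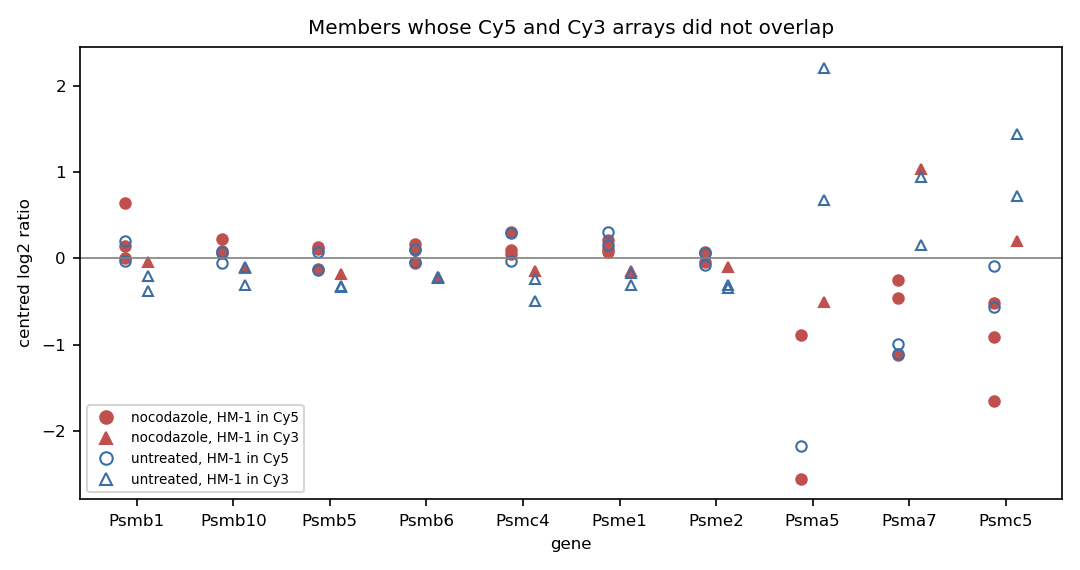
Centred log2 ratio (vertical axis) of the 10 proteasome genes whose values on the 5 arrays with HM-1 in Cy5 and the 3 arrays with HM-1 in Cy3 did not overlap, 1 point per array. In 7 genes the Cy5 points lie above the Cy3 points and in Psma5, Psma7 and Psmc5 below them.

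With the sign of the 3 Cy3 arrays turned round, the same genes come up as a ratio between the lines. Under this reading a dye difference largely becomes a line ratio by arithmetic, so their return is no separate result. Under that reading 0 of the 35 genes passed the threshold in the nocodazole ratio, the untreated ratio or their mean, again beside 0 of 14015 features (0%). At an unadjusted p under 0.05 were 2 genes with nocodazole (5.11% of features), 4 untreated (10.6%) and 5 for the mean of both (10.6%), and the dye component then held 0, against 5.18%. For that mean, Psma7 was at -0.74 (95% interval -1.12 to -0.36, limma adjusted p = 0.291), Psmc5 at -0.77 (95% interval -1.28 to -0.26, limma adjusted p = 0.34) and Psma5 at -1.33 (95% interval -2.27 to -0.39, limma adjusted p = 0.37). Psme1 was at 0.19 (95% interval 0.04 to 0.33, limma adjusted p = 0.383) and Psmc4 at 0.22 (95% interval 0.03 to 0.40, limma adjusted p = 0.429). Psma7, Psmc5 and Psme1 then had 1 sign on all 8 arrays, 3 of the 30 genes with 8 values, against 3.31% of such features. For Psmc5 this held for the average of its probes and for none of the probes alone. With the signs as deposited 0 genes did, against 0.839%. The negative lean of the particles was not kept: the turned medians of the mean ratio were 0.02 in the core (6 of 13 negative) and 0.03 in the regulatory particle (5 of 12 negative). Of all features 52.5% were then negative.

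Several probes read the same gene in 6 of the 39 genes, and they did not always agree. For Psmb4, 1 probe had an SD of 0.23 over 8 arrays and the other an SD of 1.51 over 7. For Psmd11 the SDs were 0.26 and 1.48, and the nocodazole values of the first probe ran only from -0.24 to 0.17 while the second was at -1.87 and -2.18 on nocodazole arrays 1 and 2. All 3 probes of Psmc5 had an SD above 1. For Psmf1 the lower nocodazole values came from 1 probe, at -0.85, -0.57, -0.87 and -0.06 on nocodazole arrays 1 to 4, while the other was at 0.13, -0.11, -0.03 and -0.03. The probes of Psmb6 (SD 0.08 and 0.29) and of Psmd5 (0.25 and 0.12) stayed near 0. Values that match such a quotient made up 53 of the 344 probe values of the group (15.4%), beside 11.03% to 19.45% of the values of an array. They made up 17 of 47 values (36.2%) in the 8 genes with an SD above 1, of which Psma2, Psmb2 and Psmb9 were not tested, and 11 of 160 (6.88%) in the 17 proteasome genes with an SD under 0.3. Their part in the spread was not tested.

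**Figure D5:**
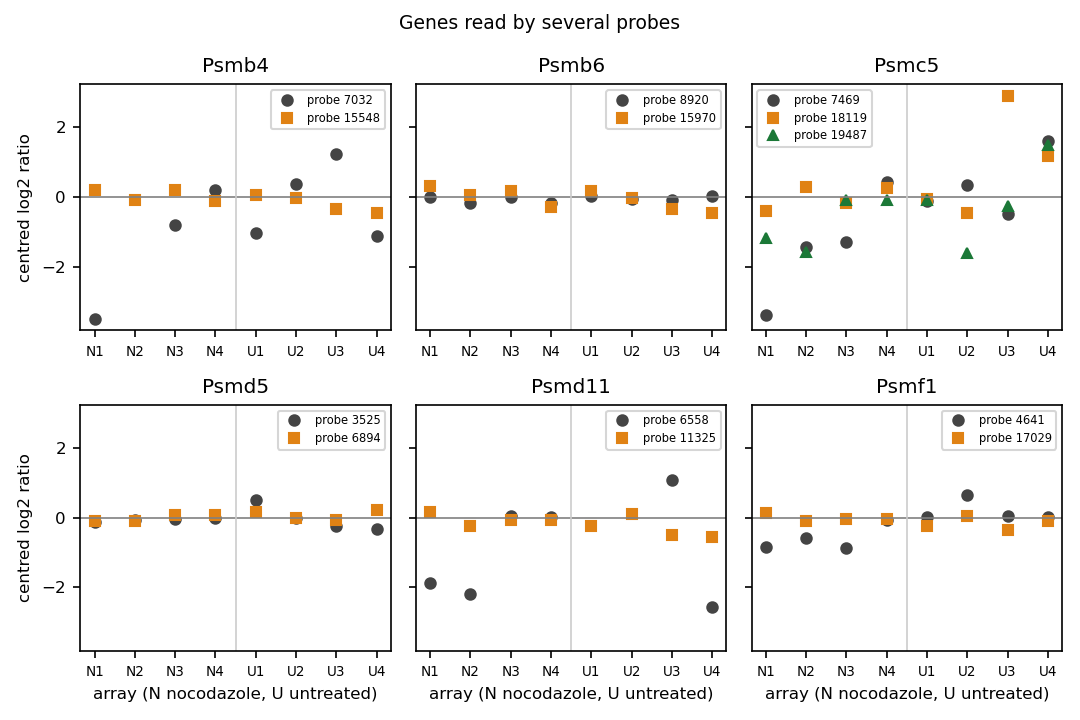
Centred log2 ratio (vertical axis) of each probe of proteasome genes read by several probes, on nocodazole arrays N1 to N4 and untreated arrays U1 to U4. The probes of Psmb6 stay between -0.47 and 0.33, and those of Psmc5 run from -3.39 to 2.91.

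Genes that work with the proteasome gave no call either. Of 34 listed partners, such as shuttle factors, deubiquitinases, ubiquitin genes and the factors that build or induce the particle, 17 were tested, and 0 passed the threshold in any comparison. Their fitted median was -0.06 with nocodazole and -0.15 untreated, with 12 and 14 negative, beside 51.4% and 51.1% of all features. Pomp, the maturation factor of the core, was at 0.24, -0.18, -0.03 and -0.27 on nocodazole arrays 1 to 4, against -0.03, -0.26, -0.50 and -0.39 on untreated arrays 1 to 4, so all untreated values were negative but overlapped those with nocodazole. The antigen-processing list, of which only some genes share their interferon control with Psmb8, Psmb10, Psme1 and Psme2, had 11 of 19 genes tested and 0 past the threshold. Its medians were -0.18 with nocodazole and -0.18 untreated, and as a mixed list they do not read an interferon response. In it B2m, the light chain of class I molecules, was at 0.43, -0.53, -0.38 and -0.39 on nocodazole arrays 1 to 4, against -0.31, -0.56, -0.52 and -0.41 on untreated arrays 1 to 4, negative on 7 of 8 arrays. Irf1 of the same list went the other way, at 0.44, 0.17, 0.07 and 0.05 on nocodazole arrays 1 to 4. On untreated arrays 1 to 4 Irf1 was at 0.49, 1.15, 0.10 and -0.205. The anaphase-promoting complex and SCF list, the ligases that feed the proteasome in the cell cycle, had 15 of 21 tested and 0 past the threshold. Its median was 0.09 with nocodazole (10 of 15 positive) and 0.23 untreated (11 of 15 positive), beside 48.6% and 48.9% of all features positive. Against that sign, Cdc20, the mitotic activator of the anaphase-promoting complex, was at 0.20, -0.20, -0.02 and -0.34 on nocodazole arrays 1 to 4, against 0.04, -0.30, -0.34 and -0.52 on untreated arrays 1 to 4. Under the turned signs the untreated medians were 0.13 for the partners, 0.01 for antigen processing and -0.14 for the ligases, each of the opposite sign. Pomp, B2m, Irf1 and Cdc20 were chosen after their values were seen.

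Marker lists of the cell types a culture could hold had 0 genes past the threshold, as with all features (0%). At an unadjusted limma p under 0.05 the mean of both conditions held 3 of 7 tested endoderm and 3 of 11 fibroblast markers, all negative. It held 1 of 6 pluripotent markers, which was positive, against 5.53% of features. Sparc stands in both the endoderm and the fibroblast list. With the Cy3 arrays turned that mean held 0 in each list, against 10.6% of features. With nocodazole and untreated, the fitted medians were -0.007 and 0.15 for 6 of 11 markers of naive pluripotent cells, -0.16 and -0.32 for 11 of 12 of feeder fibroblasts, and -0.52 and -0.74 for 7 of 10 of primitive and parietal endoderm. With the Cy3 arrays turned they were -0.04 and 0.12 for pluripotent cells, 0.13 and -0.03 for fibroblasts, and 0.26 and 0.03 for endoderm. Nocodazole array 1, kept in the main fits, had the opposite sign to nocodazole arrays 2 to 4 in each list's median. Nocodazole arrays 1 to 4 were at -0.21, 0.09, 0.14 and 0.11 for pluripotent cells. Fibroblasts were at 0.26, -0.28, -0.39 and -0.23 there, and endoderm at 0.69, -0.82, -0.77 and -0.85. Untreated arrays 1 to 4 were at 0.26, 0.20, -0.08 and 0.10, -0.30, -0.33, -0.20 and -0.34, and -0.52, -0.72, -0.11 and -0.25 in the same order. The cause was not tested. As deposited, the fitted fibroblast and endoderm medians had the negative sign of both particles. Turned, 3 of these 4 medians were positive, as were the particles'. Turning reverses the same 3 arrays for every list, so a joint change of sign cannot link the lists. On untreated arrays 1 to 4 Sparc was at -0.67, -0.88, -0.70 and -0.98, and Dab2 at -0.91, -1.06, -1.22 and -0.95. As deposited each kept 1 sign there under both dyes, and turning the Cy3 arrays would split it. Gata6, Sox17 and Col4a2 were mixed in sign on those arrays as deposited. These genes were chosen after their values were seen, and the table's direction was not tested. The part of these markers in the particles' medians was not tested. Of the symbols that the rule takes in but that are no proteasome gene, Psmc3ip, a meiotic recombination factor, was at -0.18, 0.07, 0.18 and 0.08 on nocodazole arrays 1 to 4, against 0.17, 0.08, -0.21 and -0.30 on untreated arrays 1 to 4, and Psme3ip1, a binding partner of Psme3, lay between -0.44 and 0.65.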

How the data were processed

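The values are the log2 ratios of the authors' deposited table, 1 per probe and array. How the authors corrected background and normalized, and with what software, is not given in the sources used here, and the log2 scale was inferred from the values. Total RNA was turned into cDNA and coupled to the dyes afterwards, per the labels' protocols, which also mention organs and a pooled reference that the channel labels do not match. Values above 10 in size, which code a denominator of 0 (74 to 203 per array), were set to missing, probes of 1 symbol were averaged, and each array was centred on its median. Symbols came from the platform's annotation (1 symbol for 14030 of 20355 probes). limma 3.58.1 in R 4.3.3 (lmFit and eBayes, tested on simulated data) was fitted over 8 arrays with a coefficient per group and a term for the dye of HM-1. Two-sided p-values were adjusted over 14015 features (Benjamini-Hochberg), with a threshold of 0.05. No intensities were used, so the number of arrays limits the precision.

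Named by rule were Psmb5 to Psmb10, Psme1 to Psme4, Psmf1, Psmd2, Psmd4 and Psmd14, the 5 genes of smallest unadjusted p in each comparison, and genes of 1 sign on all 8 arrays. The genes and lists were chosen with earlier results of these data known. Alternatives were other filters, centring, scaling, probe summaries, weights, dye terms, a replicate block and each array left out. RefSeq promoter windows were matched by symbol.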

Additional observations from a re-analysis of the deposited data

Results flagged for a closer look

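Of 67 groups of 4 values looked at (proteasome genes and particle medians by group), 2 held a value that stood apart from the other 3 by Dixon's test, where chance gives about 3.35. Psmd7 was at -3.38 on nocodazole array 3, against -0.05 to 0.20 on the other nocodazole arrays. Psmg2 was at -0.83 on the same array, against 0.09 to 0.20. That array also had the widest spread over all features (SD 1.10).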

How the results depend on the processing

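Over 20 alternatives no proteasome gene passed or lost the threshold in any comparison. With values required on all 8 arrays 1 feature passed in the nocodazole ratio, and with array weights 1 passed in the dye component, against 0 otherwise. The number of the 35 genes at an unadjusted p under 0.05 was 0 to 2 for the nocodazole ratio, 0 to 4 untreated, 0 to 5 for the mean, 0 to 2 for the change and 0 to 7 for the dye component. Of 198 refitted particle medians, 182 moved by less than 1 SD of the array medians. With the Cy3 arrays turned, the core median was 0.024 with nocodazole, 0.020 untreated, 0.022 for the mean and -0.21 for the dye component, and the regulatory median 0.032 with nocodazole and -0.13 for the dye component. The regulatory nocodazole median was 0.017 without the dye term and 0.017 with the opposite dye for nocodazole array 3, and ran from -0.16 to 0.034 with single arrays left out, against -0.05 with all. It was lowest without nocodazole array 4 and highest without nocodazole array 3. With single arrays left out the untreated regulatory median ran from -0.19 to 0.020, and that of the change from -0.04 to 0.17. The core dye median was 0.15 without centring, 0.12 with values on all 8 arrays and 0.19 with values that match a small whole-number quotient left out, an alternative chosen after seeing the data, against 0.02. Same-numbered nocodazole and untreated arrays had deviations from their group means that correlated at 0.13, 0.02, -0.05 and 0.09 for numbers 1 to 4, so the numbers were not taken as pairs. With the replicate number as a block, the regulatory median was 0.045 with nocodazole and -0.19 for the dye component, 0.12 for the change against 0.03 without it, and the block changed no call. For single genes, 352 of 3410 refits had the opposite sign, and 94 of 175 with the Cy3 arrays turned. The cause of these moves was not tested. Without intensities, the brightness of a spot is unknown.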
